A study of Mus musculus with 5 samples.

Results

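Gzma, Gzmb, Gzmk, Nkg7 and Ctsw, 5 genes of the cytotoxic granule programme, were followed by name through 5 single-cell libraries of mouse CD4 T cells. All 5 were among the 11924 genes of the count tables, which hold 20149 cells. The libraries held cells sorted as CD4+CD45.1+ SMARTA cells, which are CD4 T cells with a transgenic T cell receptor, on a C57BL/6 background. The naive library (7955 cells) came from spleen with no treatment. The untreated (1099 cells), antibody (4566 cells), Treg-depleted (2186 cells) and combined-treatment (4343 cells) libraries held cells of the inguinal lymph node on the tumor side, taken 8 days after injection of the tumor. The antibody against CTLA4 was given on days 0, 2 and 5, and diphtheria toxin, to deplete regulatory T cells (Tregs), on days 0 and 2. The combined-treatment mice received both. The protocols call the tumor MC38 in one place and PyMG in another, and the labels do not settle it. The labels give neither the allele that makes cells toxin-sensitive nor the number of animals pooled, and the untreated library is called so from its title.

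Granzymes are serine proteases that cytotoxic lymphocytes store in secretory granules and release onto target cells. Granzyme B (Gzmb) cleaves caspases and triggers apoptosis, granzyme A (Gzma) is a tryptase, and granzyme K (Gzmk) is a related tryptase found in memory-type and less differentiated effector T cells. Nkg7 is a membrane protein of the granules that takes part in their release, and Ctsw encodes cathepsin W, a cysteine protease of NK and cytotoxic T cells. Gzmb is also made by activated Tregs, which are recognised here by a transcript of their defining transcription factor Foxp3.

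Gzma (ENSMUSG00000023132.8) lies on the minus strand at chr13:113093825-113100981 of GRCm38, and Gzmk (ENSMUSG00000042385.14) on the same strand at chr13:113171608-113225908, with 70626 bases between them. Gzmb (ENSMUSG00000015437.5) lies on the minus strand at chr14:56258838-56262260, Nkg7 (ENSMUSG00000004612.9) on the plus strand at chr7:43437073-43438249, and Ctsw (ENSMUSG00000024910.5) on the minus strand at chr19:5465043-5468507. All are protein-coding genes of the GENCODE M21 annotation. Gzmk overlaps Esm1 and Ctsw overlaps Fibp, each on the opposite strand, and whether strand was used in counting is not given in the sources used here, so that reads of the overlapping stretches could not be told apart. Esm1 was at 0 CPM (counts scaled to a library total of 1000000) in the naive and untreated libraries, at 1.32 CPM in the antibody library, at 9.35 in the Treg-depleted library and at 5.34 in the combined-treatment library. Fibp lay between 89.8 and 120 CPM in all 5 libraries. The last 300 bases of the transcripts, where this assay reads, shared 0% of their 31-base words with any other gene for each of the 5 members.

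Promoter windows are shown so that members seen in the same cells can be compared for the letters around their RefSeq starts. RefSeq (GRCm38.p6) gave a window of 250 bases before to 50 after the start for 4 of the 5 genes, at chr13:113100932-113101231 (minus strand) for Gzma, chr14:56262285-56262584 (minus) for Gzmb, chr13:113180916-113181215 (minus) for Gzmk and chr7:43436888-43437187 (plus) for Nkg7. Capitals mark matches, on either strand, to a T-box motif (GGTGTGA, the class of Eomes and T-bet), a RUNX motif (TGTGGTT), an AP-1 motif (TGANTCA) and a CRE motif (TGACGTCA).
Gzma: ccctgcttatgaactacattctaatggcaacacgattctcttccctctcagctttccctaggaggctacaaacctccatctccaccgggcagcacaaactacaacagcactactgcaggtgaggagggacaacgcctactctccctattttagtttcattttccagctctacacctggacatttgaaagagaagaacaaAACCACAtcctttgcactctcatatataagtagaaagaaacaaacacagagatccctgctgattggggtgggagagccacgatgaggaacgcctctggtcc
Gzmb: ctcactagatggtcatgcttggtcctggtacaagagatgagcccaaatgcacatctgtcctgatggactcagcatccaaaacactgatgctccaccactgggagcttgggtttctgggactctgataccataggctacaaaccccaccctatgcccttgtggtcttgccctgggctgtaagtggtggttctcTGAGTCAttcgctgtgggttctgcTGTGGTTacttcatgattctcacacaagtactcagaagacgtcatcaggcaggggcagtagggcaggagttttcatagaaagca
Gzmk: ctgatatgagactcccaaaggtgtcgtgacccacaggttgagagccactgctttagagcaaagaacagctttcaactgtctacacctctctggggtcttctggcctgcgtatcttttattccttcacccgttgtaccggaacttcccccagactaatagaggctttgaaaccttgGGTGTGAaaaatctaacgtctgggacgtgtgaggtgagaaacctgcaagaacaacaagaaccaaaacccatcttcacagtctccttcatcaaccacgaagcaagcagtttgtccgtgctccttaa
Nkg7: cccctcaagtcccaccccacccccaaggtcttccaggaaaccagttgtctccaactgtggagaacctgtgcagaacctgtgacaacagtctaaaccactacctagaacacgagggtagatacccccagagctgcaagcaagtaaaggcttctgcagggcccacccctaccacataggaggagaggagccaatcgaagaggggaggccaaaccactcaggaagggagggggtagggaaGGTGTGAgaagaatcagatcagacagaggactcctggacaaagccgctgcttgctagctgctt

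The T-box letters stood in the windows of Gzmk and Nkg7 and the RUNX letters in those of Gzma, on the reverse strand as AACCACA, and of Gzmb. The AP-1 letters stood in the Gzmb window as TGAGTCA, and the CRE letters in none of the 4. Of all 32851 windows of this length, 3.98% held the T-box letters, 5.27% the RUNX letters, 7.81% the AP-1 letters and 1.79% the CRE letters. The Gzmk window lies inside the GENCODE span given above, which begins farther upstream, so that it is the RefSeq start and not that of the longest annotated form. The Nkg7 RefSeq start and the T-box letters before it also lie inside the GENCODE span of that gene. The Gzmb window lies wholly upstream of its GENCODE span. A match of letters describes the window and is no binding site by itself.

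Per library, Gzmb and Gzma stood near 0 in the tumor-side nodes without toxin and were high in both toxin libraries. Levels in CPM are UMIs (unique molecular identifiers, 1 per captured transcript) summed over a library's cells and scaled to its total over the listed genes, with exact Poisson 95% intervals that, like all intervals here, cover counting error only. There was 1 library per group, so no difference between groups could be tested. Medians of 1683, 3133, 4797, 5208.5 and 2468 UMIs per cell stood behind the naive, untreated, antibody, Treg-depleted and combined-treatment libraries, and the library totals ran from 3825958 to 27967273 UMIs.

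Gzmb was at 3.20 CPM in naive cells, 0 in untreated, 0.322 in antibody, 2596 (2571 to 2621) in Treg-depleted and 1414 (1396 to 1432) in combined-treatment node cells. Its 9 UMIs under antibody alone lay in 3 cells, whereas 1349 and 1695 cells had a Gzmb UMI in the toxin libraries, with up to 392 in 1 cell. Gzma was at 54.1 CPM (50.3 to 58.1) in naive cells, 0 in the untreated library, 1.72 in the antibody, 181 in the Treg-depleted and 102 in the combined-treatment library. The order of libraries was thus the same for Gzma and Gzmb among the 4 node libraries, except that the untreated and antibody libraries could not be told apart for Gzmb, where 0 UMIs in the untreated library allow up to 0.784 CPM.

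Gzmk followed another order, with 1.09 CPM in naive cells, 5.75 in the untreated library, 4.36 in the antibody, 10.3 in the Treg-depleted and 66.05 (62.2 to 70.05) in the combined-treatment library. The intervals of the untreated (3.60 to 8.71) and antibody (3.62 to 5.21) libraries overlapped. The interval of the Treg-depleted library (8.77 to 12.0) began just above that of the untreated one, and the other neighbours in the order were well apart.

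Nkg7 was at 55.1 CPM in naive cells, 38.7 in the untreated library, 22.0 in the antibody, 310 in the Treg-depleted and 538 in the combined-treatment library. Ctsw kept within a narrow range, at 20.6, 23.5, 16.8, 22.7 and 31.5 CPM in the same order, and the intervals of the naive, untreated and Treg-depleted libraries overlapped.

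**Figure D1:**
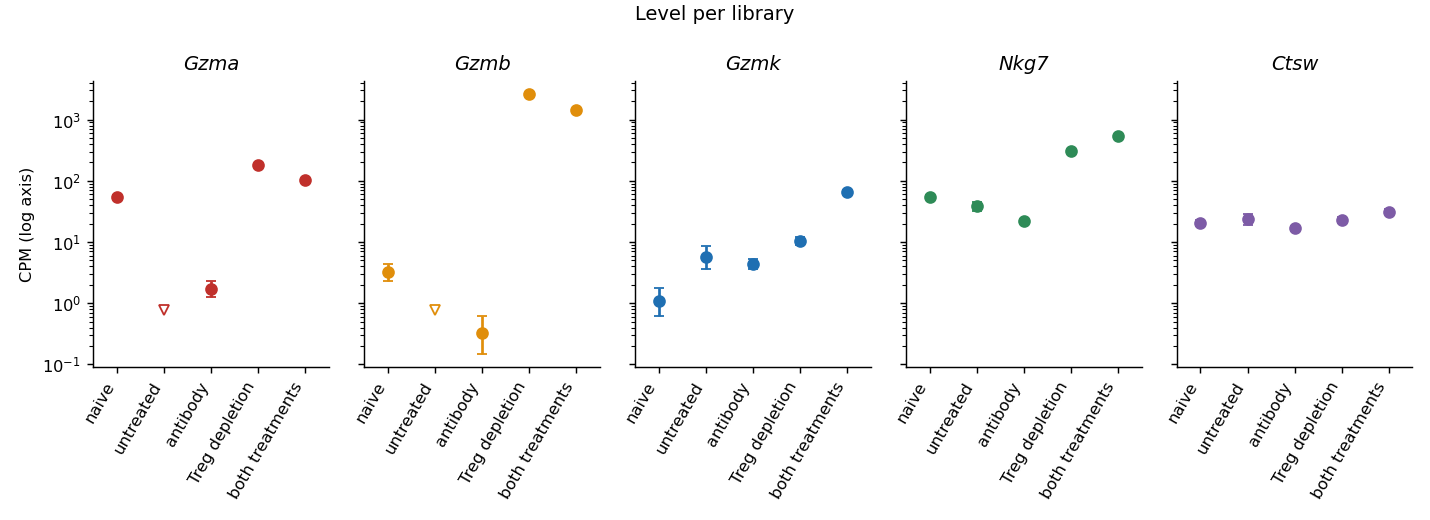
Level of each gene in each of the 5 libraries, in CPM on a log axis shared by the panels; points are library sums, bars are 95% Poisson intervals, and open triangles mark 0 UMIs at the level of the 3-UMI floor. Gzma and Gzmb are at 0 in the untreated library and high in both toxin libraries, Gzmk is highest with both treatments, and Ctsw lies between 16.8 and 31.5 CPM throughout.

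In the naive library, most Gzma transcripts lay in cells that also carried markers of another lymphocyte type. Its 745 Gzma UMIs came from 71 cells, of which 23 had at least 2 specific markers of another type, 16 of them NK and 7 gamma delta T cell markers, and these 23 cells held 85.8% of the UMIs. Of the 18 cells with at least 10 Gzma UMIs, 15 had NK markers. All 10 listed NK and innate lymphoid markers were seen in the naive library, at a summed 96.8 CPM, while in the 4 node libraries 4 or 5 of the 10 were seen, at a summed 21.9 to 57.7 CPM, and Ncr1, Klra4, Klra8 and Klra9 were at 0. Cells with at least 2 specific markers of any other type held 39.3% of the Nkg7 UMIs of the naive library. They were 38 of its 155 Nkg7-positive cells, 18 with NK and 18 with gamma delta T cell markers. For Ctsw they held 17.3% of the UMIs, in 19 of 232 cells, 13 with NK and 4 with gamma delta T cell markers.

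Against the naive library, the untreated library had at least 69.0-fold less Gzma, 5.28-fold more Gzmk (2.62 to 10.9) and 1.42-fold less Nkg7 (1.19 to 1.71). Without the cells that carried specific markers of another type, the ratio for Gzma stood at no more than 0.101 in place of 0.0145, and that for Nkg7 turned from 0.703 to 1.10. In receptor gene cells the Gzmk ratio was 35.9, which rests on 1 naive and 7 untreated receptor gene cells with Gzmk. Gzmb was at least 4.08-fold lower in the untreated library, from 44 UMIs in the naive one, and Ctsw differed by 1.14-fold with an interval that spanned 1. A ratio carries the exact 95% interval of the conditional binomial distribution, and a gene at 0 UMIs in one library was set to 3 UMIs, so that its fold is a lower bound. Of the 5 members, 2 passed the filter for counting (a mean of 25 CPM and 30 UMIs), and 1 of these, Gzma, was at least 2-fold lower, beside 5.53% of 6814 genes. Members that pass only through the library or cell class where they are high had to differ. The count is therefore no support by itself, and this holds for all counts of members below.

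CTLA4 antibody alone went with small differences. Relative to the untreated library, Nkg7 was 1.76-fold lower (1.46 to 2.11) and Ctsw 1.40-fold lower (1.11 to 1.76), Gzmk was at a 1.32-fold lower level with an interval from 0.797 to 2.09, and Gzma was at least 2.19-fold higher on 48 UMIs. Leaving out cells with at least 2 genes of a G2M cell cycle list moved the Nkg7 ratio from 0.568 to 0.862 and the Ctsw ratio from 0.713 to 1.09. Only Nkg7 passed the counting filter, and it was not past 2-fold, where 1.32% of 6644 genes were lower and 2.65% higher.

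Toxin went with large differences in Gzmb, Gzma and Nkg7. Relative to the untreated library, which serves all comparisons of this paragraph, the Treg-depleted library had at least 3310-fold more Gzmb, at least 231-fold more Gzma, 8.02-fold more Nkg7 (6.81 to 9.51) and 1.79-fold more Gzmk (1.14 to 2.93), while Ctsw was at a ratio of 0.966 with an interval that spanned 1. Of the 3 members that passed the counting filter all 3 were at least 2-fold higher, beside 6.98% of 6529 genes (12% were lower). Gzma and Gzmb, not seen in the untreated library, could pass only through a toxin library. Neither this count nor the one with both treatments is support by itself. The combined-treatment library had at least 1803-fold more Gzmb, at least 130-fold more Gzma, 11.5-fold more Gzmk (7.55 to 18.4), 13.9-fold more Nkg7 (11.8 to 16.5) and 1.34-fold more Ctsw. Without G2M-positive cells the ratios over untreated were 12.9 for Nkg7 and 2.03 for Ctsw after depletion, and 22.8 for Gzmk, 24.8 for Nkg7 and 2.74 for Ctsw with both treatments; in receptor gene cells Ctsw was at 1.71 and 2.03. In receptor gene cells the bounds were 1622-fold and 647-fold for Gzmb and, after depletion, 106-fold for Gzma. Over all cells with both treatments 4 of 5 members, all but Ctsw, were at least 2-fold higher, beside 6.18% of 6614 genes (5.9% were lower).

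The combined-treatment library against the antibody library, 2 libraries that both received the antibody, gave the same 4 genes, beside 4.07% of 6514 genes (3.73% were lower). Gzmb was 4394-fold higher (2314 to 9610), on 9 UMIs in the antibody library, Gzma 59.4-fold (44.6 to 80.9), Nkg7 24.5-fold (22.5 to 26.6), Gzmk 15.1-fold (12.6 to 18.4) and Ctsw 1.88-fold (1.66 to 2.13). Without G2M-positive cells Gzmb was 1202-fold and Gzmk 34.1-fold higher, and in receptor gene cells Gzmk was 24.0-fold higher.

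Between the toxin libraries the 5 genes split. With antibody added to depletion, Gzmk was 6.43-fold higher (5.46 to 7.61), Nkg7 1.73-fold higher (1.68 to 1.80) and Ctsw 1.39-fold higher (1.21 to 1.59), whereas Gzmb was 1.84-fold lower (1.81 to 1.86) and Gzma 1.77-fold lower (1.67 to 1.88). Gzmk was the 1 of 5 members at least 2-fold higher, beside 1.21% of 6261 genes, and 0 of 5 were at least 2-fold lower, beside 0.319%. Kept to cells with a transcript of a SMARTA receptor variable gene (Trbv13-1 or Trav14d-3-dv8), Gzmk was 10.2-fold higher, Nkg7 2.36-fold higher and Gzmb 2.51-fold lower, but Gzma turned to a ratio of 1.16. Without G2M-positive cells the Gzmb ratio was 0.302 in place of 0.545.

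The share of Foxp3-positive cells also differed between libraries. With antibody added to depletion it was lower, as were Gzmb and Gzma, while Gzmk, Nkg7 and Ctsw were higher. Cells with at least 1 Foxp3 UMI numbered 72, 16 and 54 in the naive, untreated and antibody libraries, 1284 (58.7%) in the Treg-depleted and 1649 (38.0%) in the combined-treatment library. A Foxp3-negative cell can be a positive cell read too shallowly: median depth was 6611.5 UMIs in positive against 3835.5 in negative cells of the Treg-depleted library, and 4599 against 1952.5 in the combined-treatment library. A SMARTA receptor gene was seen in 275 of the 1284 and 307 of the 1649 Foxp3-positive cells, against 495 of 902 and 1326 of 2694 negative cells, so whether the positive cells are SMARTA cells was not tested.

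Gzmb lay chiefly in Foxp3-positive cells. In the Treg-depleted library it was at 3514 CPM in positive and 439 in negative cells, an 8.01-fold difference (7.66 to 8.37), and positive cells held 94.95% of its UMIs. In the combined-treatment library it was at 2121 against 257 CPM, 8.26-fold (7.86 to 8.69), with 93.1% of its UMIs in positive cells. Where negative cells were also required to lack Il2ra, a Treg and activation marker, the Gzmb ratios were 45.3 and 18.6. They were 30.5 and 26.4 without G2M-positive cells, 15.8 and 22.8 in cells with a receptor gene, and 4.67 and 4.92 in cells without one, and leaving out cells with any markers of another type gave 21.8 after depletion.

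Gzmk and Ctsw lay the other way. In the combined-treatment library Gzmk was at 13.4 CPM in Foxp3-positive and 152 in negative cells, 11.4-fold lower in the positive ones (9.54 to 13.7), and negative cells held 87.4% of its UMIs. In the Treg-depleted library the Gzmk levels of 9.27 and 12.7 CPM had a ratio whose interval spanned 1. Ctsw was 6.54-fold lower (5.17 to 8.34) in positive cells of the Treg-depleted library, at 8.56 against 56.0 CPM, and 6.64-fold lower (5.36 to 8.31) in those of the combined-treatment library, at 10.03 against 66.6 CPM. Fibp, which overlaps Ctsw, was at 84.9 against 101 and at 79.9 against 113 CPM in the same classes. Without G2M-positive cells Ctsw was 3.59-fold and 3.48-fold lower in the positive cells of the 2 libraries, and Gzmk 4.98-fold lower with both treatments. Esm1, which overlaps Gzmk, was at 4.20 against 7.19 CPM in positive and negative cells of the combined-treatment library.

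Gzma and Nkg7 differed in direction between the toxin libraries. Gzma was 1.73-fold higher in Foxp3-positive cells (207 against 119 CPM) of the Treg-depleted library and 1.59-fold lower (83.3 against 133 CPM) with both treatments. Nkg7 was 1.17-fold higher (324 against 277 CPM) after depletion and 2.71-fold lower (326 against 884.5 CPM) with both treatments. The Gzma directions turned among cells with a receptor gene, where the ratio of positive over negative cells was 0.610 after depletion and 1.28 with both treatments. Without G2M-positive cells the Gzma ratio was 8.46 after depletion and 0.941 with both treatments, and the Nkg7 ratio after depletion was 1.76. Of the 4 members that passed the counting filter after depletion, Gzmb was at least 2-fold higher in positive cells, beside 2.72% of 6209 genes, and Ctsw at least 2-fold lower, beside 5.19%. With both treatments Gzmb was at least 2-fold higher, beside 6.48% of 6482 genes, and Gzmk, Nkg7 and Ctsw at least 2-fold lower, beside 13.1%.

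With both sides kept to Foxp3-negative cells, levels in the toxin libraries can include free RNA, and for Gzmb and, after depletion, Gzma the share of negative cells with a UMI was no higher than in cells with B cell or myeloid markers (given below). After depletion, Gzmb was at least 552-fold higher than in untreated negative cells, Gzma at least 150-fold, Nkg7 7.07-fold (5.96 to 8.43), Ctsw 2.54-fold (1.98 to 3.29) and Gzmk 2.17-fold (1.31 to 3.71). The 4 of these that passed the counting filter, all but Gzmk, were at least 2-fold higher, beside 4.01% of 6584 genes (3.25% were lower). With both treatments Gzmb was at least 323-fold higher, Gzma at least 167-fold, Gzmk 26.1-fold (17.2 to 41.9), Nkg7 22.5-fold (19.1 to 26.7) and Ctsw 3.03-fold (2.39 to 3.88), so 5 of 5 were at least 2-fold higher, beside 3.48% of 6728 genes (2.2% were lower). Against Foxp3-negative cells of the antibody library, those of the combined-treatment library also had all 5 members at least 2-fold higher, from 3.95-fold for Ctsw (3.45 to 4.51) to 3529-fold for Gzmb on 2 UMIs in the antibody library (975 to 29161), beside 4.96% of 6668 genes (2.97% were lower). In these comparisons Gzma and Gzmb passed the filter only through the toxin libraries and had to differ, so the counts are no support by themselves. Within these negative cells the antibody alone left Nkg7 1.77-fold lower (1.47 to 2.13) than in the untreated library, and the 1 member that passed the filter was not past 2-fold, beside 2.59% higher and 1.34% lower of 6644 genes.

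Within Foxp3-positive cells, adding the antibody went with 1.66-fold less Gzmb (1.63 to 1.68), 2.49-fold less Gzma (2.30 to 2.69) and an Nkg7 ratio of 1.007 (0.961 to 1.06). Of the 3 members that passed the filter, Gzma was at least 2-fold lower, beside 0.25% of 6002 genes (0.417% were higher). Within Foxp3-negative cells it went with 12.0-fold more Gzmk (9.29 to 15.9), 3.19-fold more Nkg7 (3.004 to 3.39), 1.19-fold more Ctsw and 1.71-fold less Gzmb (1.60 to 1.83), and the Gzma interval (0.9975 to 1.24) spanned 1. Gzmk and Nkg7, 2 of 5, were at least 2-fold higher, beside 3.4% of 6559 genes, and 0 of 5 were lower, beside 1.33%. In Foxp3-negative cells with a receptor gene Gzmk was 13.3-fold (9.52 to 19.3) and Nkg7 3.32-fold (3.08 to 3.58) higher and Gzmb 2.97-fold lower (2.565 to 3.45), beside 4.96% higher and 2.87% lower of 6587 genes.

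Among Foxp3-positive cells, those with a receptor gene had 2.67-fold less Gzma (2.34 to 3.06) than those without after depletion, and 2.59-fold more (2.25 to 2.97) with both treatments. Gzma was the 1 of 3 filtered members past 2-fold in each case, beside 0.118% of 5953 genes lower after depletion (0.286% higher) and 0.594% of 6058 genes higher with both treatments (0.149% lower). The share of cells with Gzma after depletion was 8.00% in receptor cells (5.08 to 11.9) and 8.12% in the others (6.504 to 9.997), and 40 of the others had at least 10 Gzma UMIs, up to 258, against 5 of the receptor cells, up to 76. With both treatments the shares were 7.64% (4.91 to 11.3) and 4.60% (3.53 to 5.88). Gzmb levels of the same classes were 1.02-fold apart after depletion and 1.28-fold lower in receptor cells with both treatments.

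Because depth differed, shares of cells refer to random draws of 1000 UMIs from every cell, called thinned below. In the Treg-depleted library, 76.9% of 1272 Foxp3-positive cells (exact binomial 95% interval 74.5 to 79.2) and 11.9% of 879 negative cells (9.87 to 14.3) had a Gzmb UMI, against 91.3% and 19.6% before thinning. As a rough gauge of free RNA in droplets, cells with at least 4 B cell or myeloid markers were taken. Of these, 17.2% (5 of 29, 5.85 to 35.8) had a Gzmb UMI, at a median depth of 8367 UMIs before thinning. The markers included Cst3 and Ctss, seen in 42.2% and 58.7% of all cells, and cells with Foxp3 or a receptor gene were not left out. In the combined-treatment library the Gzmb shares were 64.9% of 1605 positive cells, 8.62% of 2354 negative cells and 16.7% (3 of 18) of the marker cells, whose median depth was 5587 UMIs. The shares in Foxp3-negative cells lay inside the wide intervals of the marker cells (3.58 to 41.4 with both treatments). So few marker cells, some of which can be T cells, cannot place these shares above or below background, and no doublet caller was run on them. The shares are not read as expression, and the part of free RNA in them was not tested. At least 10 Gzmb UMIs were seen in 50 and 47 negative cells of the 2 libraries, with up to 216 in 1 cell.

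Gzmk was seen in 10.2% (8.96 to 11.4) of Foxp3-negative and 1.31% of positive cells of the combined-treatment library, and in 0 of 18 marker cells, which allows a share of up to 16.7%. In the Treg-depleted library the Gzmk shares were 1.02% and 1.26%. Nkg7 was seen in 42.9% (40.9 to 44.9) of negative and 23.2% of positive cells with both treatments, and in 13.8% and 22.9% after depletion, against 22.2% (4 of 18, 6.41 to 47.6) and 10.3% (3 of 29) of the marker cells. Each of these Nkg7 shares lay inside the interval of the marker cells of its library (2.19 to 27.4 after depletion). Before thinning, the Nkg7 shares with both treatments were 52% of negative and 43.4% of positive cells. Gzma shares lay between 4.89% and 8.10% in the 4 classes, against 6.90% of marker cells after depletion (2 of 29, 0.846 to 22.8) and 0 of 18 with both treatments, so after depletion Gzma could not be told from free RNA by its share. Ctsw was seen in 6.33% of negative and 1.37% of positive cells with both treatments, and in 3.19% and 1.42% after depletion. Outside the toxin libraries, each of the 5 genes was seen in at most 2.04% of the thinned cells of a library.

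**Figure D2:**
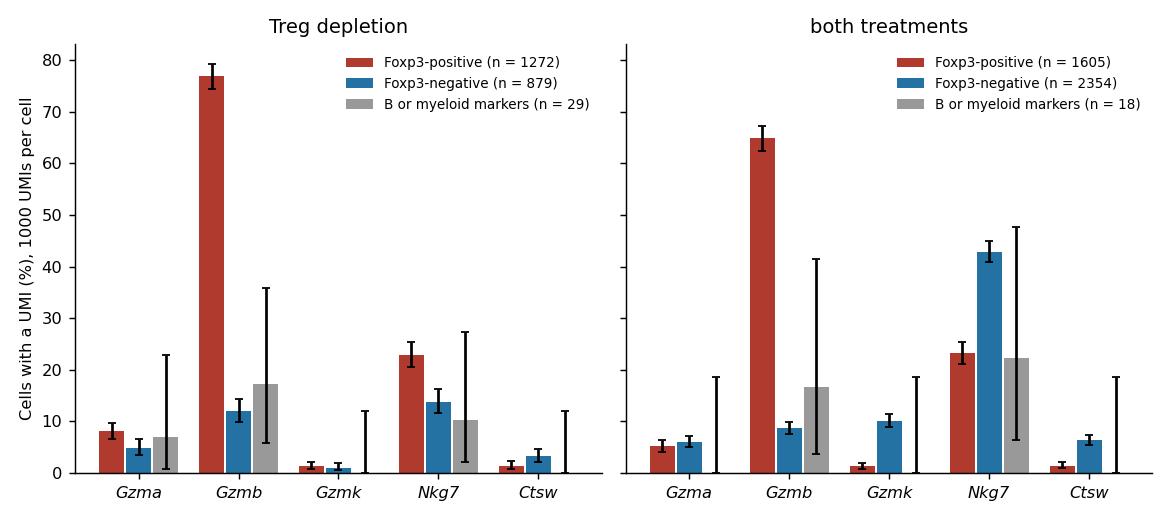
Share of cells with a UMI of each gene after thinning to 1000 UMIs, in percent, by Foxp3 status and in cells with B cell or myeloid markers, for the Treg-depleted and combined-treatment libraries; bars carry exact binomial 95% intervals. Gzmb is seen in 76.9% and 64.9% of Foxp3-positive cells, and Gzmk and Nkg7 in 10.2% and 42.9% of Foxp3-negative cells of the combined-treatment library.

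Combinations of granzymes per cell are given by Foxp3 status. Among cells with any of the 3 granzymes, Foxp3-positive cells had Gzmb alone in 88.0% of 991 cells after depletion and 90.6% of 1067 cells with both treatments, and Gzma with Gzmb in 9.28% and 5.72%. Foxp3-negative cells after depletion had Gzmb alone in 65.3% of 144 cells and Gzma alone in 20.8%. With both treatments the 512 negative cells were more mixed: 35.7% had Gzmb alone, 34.8% Gzmk alone, 16.0% Gzma alone, 9.57% Gzma with Gzmk, 1.76% Gzmb with Gzmk and 1.56% Gzma with Gzmb. All 3 granzymes were seen together in 3 of these 512 cells.

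**Figure D3:**
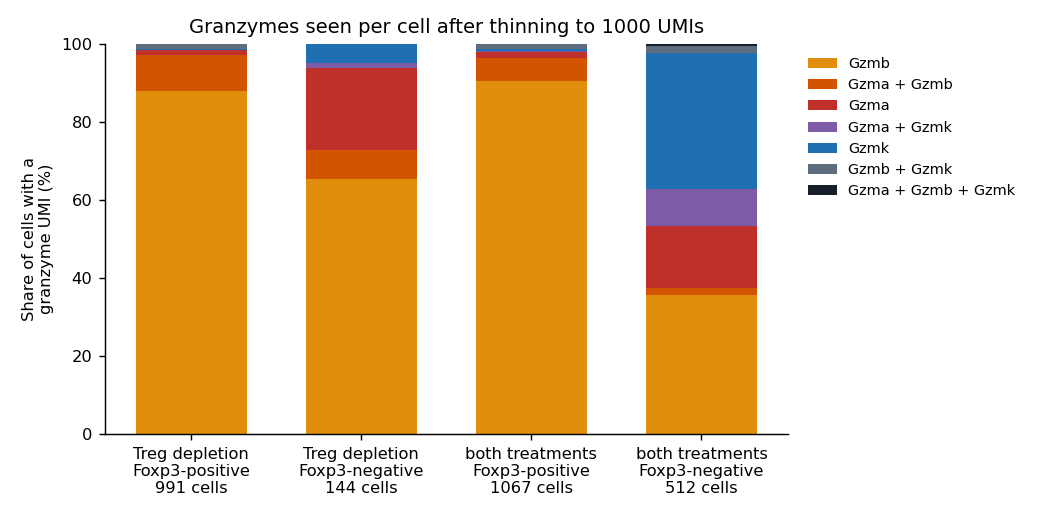
Combinations of Gzma, Gzmb and Gzmk seen per cell after thinning to 1000 UMIs, as a share (percent) of the cells with at least 1 of them, by library and Foxp3 status. Gzmb alone makes up 88.0% and 90.6% of the Foxp3-positive bars, and Gzmk alone makes up 34.8% of the Foxp3-negative bar with both treatments.

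Gzmb and Gzmk were seen together less often than the product of their shares over all cells of the combined-treatment library, but not within Foxp3-positive cells. Over all cells Gzmk was seen in 2.01% of 1244 cells with Gzmb and in 8.66% of those without, and 25 cells had both where the product of the shares gives 81.7. Within Foxp3-negative cells the shares were 5.91% (3.09 to 10.1) and 10.6% (9.29 to 11.9), with 12 cells against 20.6, and within positive cells 1.25% (0.667 to 2.13) and 1.42% (0.614 to 2.78), with 13 cells against 13.6. In cells without a UMI of either Foxp3 or Il2ra the ratio of the shares was 0.852, and over all cells without thinning it was 0.453, against 0.232 with thinning. In the Treg-depleted library 25 cells had Gzmk, too few to compare by class. Over all cells of that library 14 had Gzmb and Gzmk where the product gives 12.6.

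Gzma and Gzmk, neighbours on chromosome 13, were seen together more often than the product of their shares with both treatments. Over all cells of the Treg-depleted library, 2 cells had both where the product gives 1.70. In Foxp3-negative cells with both treatments Gzmk was seen in 36.6% (28.7 to 45.1) of 142 cells with Gzma and 8.45% (7.33 to 9.69) of those without, and 52 cells had both where the product of the shares gives 14.4. In Foxp3-positive cells with both treatments 4 cells had Gzma and Gzmk where the product gives 1.09. Gzma and Gzmb were seen together in 11 Foxp3-negative cells with both treatments, close to the 12.2 that the product gives, with Gzmb in 7.75% (3.93 to 13.4) of cells with Gzma and 8.68% of those without. In Foxp3-positive cells Gzmb was seen in 74.7% (64.0 to 83.6) of cells with Gzma and 64.3% of those without with both treatments, and in 89.3% (81.7 to 94.5) against 75.8% after depletion. In negative cells after depletion the Gzmb shares were 25.6% (13.5 to 41.2) and 11.2%. Cells of 1 library share their source and their free RNA, and these shares describe the cells without a test.

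How Nkg7 went with the granzymes differed between classes. In Foxp3-negative cells with both treatments it was seen in 75.3% (69.3 to 80.6) of 239 cells with Gzmk and 39.2% of those without, in 71.8% against 41.05% with and without Gzma, and in 32.5% (26.1 to 39.4) against 43.9% with and without Gzmb. In Foxp3-positive cells of the same library Nkg7 was seen in 27.5% of cells with Gzmb and 15.2% of those without, the opposite order to the negative cells. After depletion Nkg7 was seen in 26.7% against 10.2% of positive cells and 35.2% against 10.9% of negative cells with and without Gzmb. Ctsw was seen in 12.1% of Foxp3-negative cells with Gzmk and 5.67% of those without, with both treatments.

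**Figure D4:**
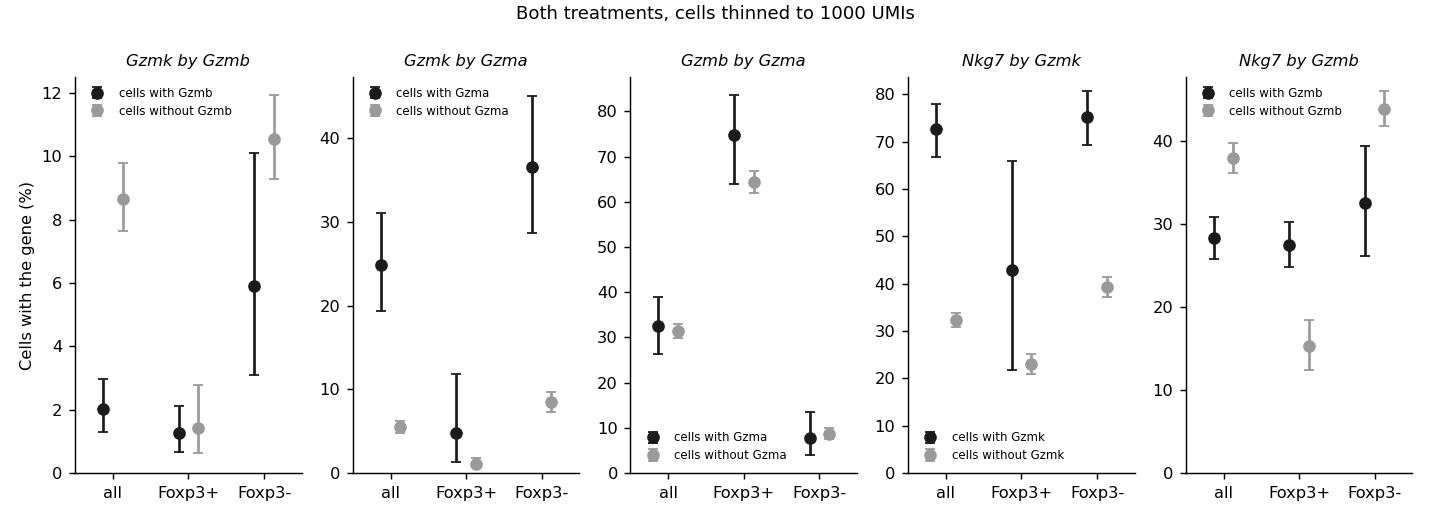
Share of cells (percent) with a second gene among cells with (black) and without (grey) a first gene, in the combined-treatment library thinned to 1000 UMIs, over all, Foxp3-positive and Foxp3-negative cells; bars are exact binomial 95% intervals and each panel has its own axis from 0. Gzmk is rarer in cells with Gzmb over all cells (2.01% against 8.66%), and in Foxp3-negative cells it is seen in 36.6% of cells with Gzma.

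The 227 Foxp3-negative cells with Gzmk and no Gzmb in the combined-treatment library and the 191 with Gzmb and no Gzmk are set side by side, at median depths before thinning of 2182 and 2110 UMIs. Il2ra was seen in 0.881% (0.107 to 3.15) of the Gzmk cells and 34.0% (27.3 to 41.2) of the Gzmb cells, against 4.45% of 1842 cells without a granzyme. At least 2 genes of the G2M list were seen in 9.69% and 40.3%, against 20.6%, and a SMARTA receptor gene in 33.0% and 16.8%, against 32.0%. Among Foxp3-positive cells the G2M share was 48.4% in cells with Gzmb and no Gzmk and 76.5% in cells without a granzyme after depletion, and 52.6% and 69.0% with both treatments.

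In summed thinned counts, Eomes, a T-box factor of cytotoxic and memory cells, was at 524 CPM in the Gzmk cells and 52.4 in the Gzmb cells, 10.01-fold higher (5.26 to 21.4). Slamf7, a surface receptor of cytotoxic lymphocytes, was 6.73-fold higher (4.05 to 11.9), Gzma 7.01-fold (4.29 to 12.2), Nkg7 2.77-fold (2.28 to 3.40), the pore-forming perforin gene Prf1 3.05-fold (1.36 to 7.72), Tcf7, a factor of naive and memory cells, 2.71-fold (2.03 to 3.66) and Runx3 2.09-fold (1.40 to 3.19). Lower in the Gzmk cells were Il2ra, 73.1-fold (19.8 to 610), Ctla4, 11.05-fold (7.86 to 16.0), Prdm1, which encodes Blimp-1, 20.2-fold on 1 UMI (3.17 to 844), and Il2rb, 3.84-fold (2.66 to 5.65). Klrg1 and Lrrc32, both seen on effector Tregs, were at 0 UMIs in the Gzmk cells and at least 7.53-fold lower. The granule proteoglycan gene Srgn was 1.75-fold lower (1.54 to 2.00) and Ctsw had an interval that spanned 1. The Gzmb cells are set by at least 1 thinned UMI at a share no higher than in marker cells, and Foxp3-positive cells read too shallowly would fall among them, so they are not taken as a cell class, and the part of free RNA and of missed Foxp3 in these differences was not tested. Of 3607 genes measured in both classes, 8.37% lay at least 2-fold above and 6.18% at least 2-fold below in the Gzmk cells.

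**Figure D5:**
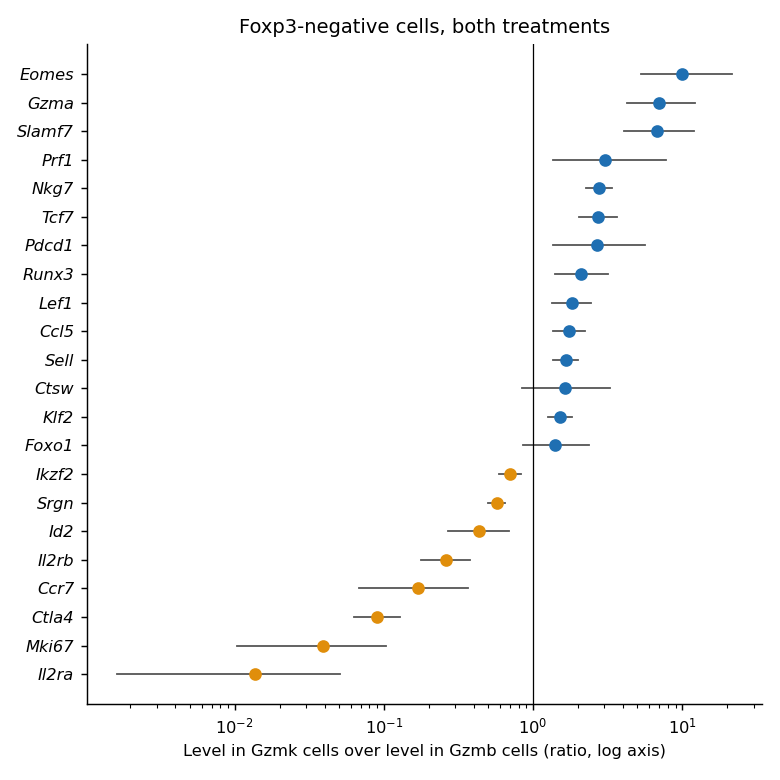
Ratio of summed thinned levels in Foxp3-negative cells with Gzmk and no Gzmb (227 cells) over those with Gzmb and no Gzmk (191 cells) of the combined-treatment library, on a log axis, for regulators and further granule, Treg and naive cell genes with at least 30 UMIs over both classes and at least 1 in each; lines are exact 95% intervals. Eomes, Gzma and Slamf7 lie farthest to the right, and Il2ra, Mki67 and Ctla4 farthest to the left.

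Other genes of the granule pathway were counted at 2-fold in the same way. In the Treg-depleted against untreated comparison, where 6.98% of all genes were higher and 12% lower, 8 of 19 other granule contents were measured, with Ctsz and Srgn higher and 0 lower and a median log2 ratio of 0.33 against -0.21 for all genes. Of 19 genes of granule transport and release, 18 were measured there, with Sytl3, Sytl1 and Stx11 higher and Sytl2 lower (median 0.09). Of 9 listed protease inhibitors (serpins and cystatins) 5 were measured, with the serpin gene Serpina3g higher (median 0.23). With both treatments against untreated (6.18% higher and 5.9% lower of all genes) Ctsz and Srgn of 8, Sytl1 and Stx11 of 17 and Serpina3g of 5 were higher, and Sytl2 was lower.

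In Foxp3-negative cells, 3 of 5 measured genes of the protease inhibitor list were higher than in the untreated library after depletion (Serpinb6b, Serpinb9 and Cst3). The median log2 ratio was 1.16 against -0.14 for all genes, beside 4.01% of all genes higher. With both treatments Serpina3g, Cst3 and Serpinb6b were higher (median 1.17 against -0.04), beside 3.48%. Serpinb9 encodes an inhibitor of granzyme B, whereas Cst3 encodes a cystatin, which inhibits cysteine proteases and not granzymes. Counts and medians describe the genes measured, some of which pass the filter only through the library where they are high, and single out no list.

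Of 30 regulators and partners of the cytotoxic programme, 14 were measured after depletion against untreated, and 7 were at least 2-fold higher (Klrg1, Il2ra, Prdm1, Ccl5, Il12rb1, Ifng and Il2rb) and 3 lower (Bach2, Tcf7 and Foxo1), beside the same 6.98% and 12%, with a median log2 ratio of 1.02. With both treatments 9 of 16 were higher, now with Slamf7 and Eomes, and Tcf7 and Bach2 lower (median 1.37 against -0.16 for all genes), beside 6.18% and 5.9%. With antibody added to depletion, Foxp3-negative cells had Ccl5, Eomes, Slamf7 and Bach2 higher, and Cxcr6, Klrd1 and Ifng lower, of 17 measured, beside 3.4% and 1.33%, and Prf1 was the 1 of 9 measured granule contents that was higher. Eomes was at 23.8 CPM over the whole Treg-depleted library and 92.3 over the combined-treatment one. Between Foxp3-positive and negative cells with both treatments, Klrg1, Il2ra, Prdm1, Il2rb, Ccl4, Tnfsf10 and Il12rb1 were higher and Eomes, Tcf7, Bach2, Slamf7, Bhlhe40 and Ccl5 lower, of 18 measured, beside 6.48% and 13.1%.

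The genes detected in the same cells as a member differed between members. Likeness was the phi coefficient of having a UMI over thinned cells, within Foxp3-positive and negative cells of both toxin libraries, averaged over the strata with at least 20 cells of each gene. Gzmb was most like S100a6 (mean phi 0.325 over 4 strata), S100a4 (0.271), Il2ra (0.254), Capg (0.253) and Glrx (0.248). Gzmk was most like Slamf7 (0.173 over 2 strata), Dcp1b (0.169), Gzma (0.147), Nkg7 (0.137) and Tubb2b (0.130). Both strata for Gzmk were of the combined-treatment library, with Gzmk in 21 Foxp3-positive and 239 Foxp3-negative cells. Nkg7 was most like Ifitm1 (0.187 over 3 strata), and Ctsw like Ifitm1 (0.258), Cxcr6 (0.256) and Klrd1 (0.215), each over 2 strata. For Gzma no gene reached a mean phi above 0.147, that with Gzmk, and weak values in sparse counts are no finding. In the naive library Nkg7 was most like Ccl5 (0.540), S100a6 (0.368) and Gzma (0.362). The cells of a stratum share a library and its free RNA, and the values are a description.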

How the data were processed

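The authors deposited a table of UMI counts for each library, with genes against cells and whole numbers throughout. The submitters' processing notes name bcl2fastq 2.20, Cell Ranger 6.0.0, Seurat 4.0.4, R 4.1.1 and the mm10 build; per the labels' protocols, the libraries are 3′ tag libraries. The tables list 11924 genes, of which 11809 names matched GENCODE M21, and totals refer to the listed genes alone. A cell filter of 200 genes or more and no more than 10% mitochondrial UMIs removed 0 cells. No doublet caller was run; the deepest 5% of cells were left out as an alternative. Library pairs shared 0 to 10 cell barcodes. Thinning to 1000 UMIs left out 130, 22, 0, 35 and 384 cells of the naive, untreated, antibody, Treg-depleted and combined-treatment libraries. Markers seen in at least 5% of cells (Cd8b1, Cst3, Ctss and Trdc) were not counted as specific, but Cst3 and Ctss did count toward the 4 markers of the free RNA gauge. With 1 library per group no test was made, and a difference has no replicate check.

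The 5 genes are named in every library. Other genes come from 4 lists of granule contents, granule transport, protease inhibitors and regulators, or are the 5 most alike per member. Members, lists and alternatives were chosen with earlier results of these data known. Of the lists, Gzmd, Gzme, Gzmg, Gzmn, Gnly, Coro1a and Serpinb9b were not analysed here. The further Treg, naive and checkpoint genes set beside the Gzmk and Gzmb cells were picked with their values known. Alternatives were other totals and edgeR TMM factors, other cell filters, cells of other types, deep or G2M-positive cells left out, receptor gene cells alone, single-cell means, other Foxp3 rules and other thinning. On simulated Poisson counts for the combined-treatment over Treg-depleted comparison (6261 genes, 200 changed 3-fold), 95.0% of the intervals covered the true ratio and 100% of the changed genes were recovered. This checks the computation, not variation between mice. In simulated cells of unequal depth, a true ratio of shares of 3 came out as 2.37 with thinning and 2.84 without. A true ratio of 1 came out as 1.06 and 0.857. Thinning thus drew a true difference toward 1 in that simulation. Analyses used Python 3.11.15, numpy 2.4.6, scipy 1.17.1, pandas 2.3.3 and edgeR 4.0.16.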

Additional observations from a re-analysis of the deposited data

Results flagged for a closer look

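For 3 of the 5 genes, over all cells, the antibody went with opposite differences without and with Treg depletion; the difference between these effects was not tested, since each rests on 1 library per group, and the 2 comparisons share no library. Nkg7 was 1.76-fold lower in the antibody than in the untreated library and 1.73-fold higher in the combined-treatment than in the Treg-depleted library; in Foxp3-negative cells it was 1.77-fold lower and 3.19-fold higher. Ctsw was 1.40-fold lower and 1.39-fold higher over all cells, and 1.30-fold lower and 1.19-fold higher in Foxp3-negative cells. Gzma was at least 2.19-fold higher, on 48 UMIs against 0, and 1.77-fold lower; in Foxp3-negative cells its 1.11-fold higher level with depletion had an interval (0.9975 to 1.24) that spanned 1, so that the directions were not opposite there. When G2M-positive cells were left out, the Ctsw ratio without depletion turned to 1.09 and the Nkg7 ratio without depletion moved from 0.568 to 0.862. The Gzma bound without depletion fell to 1.51 in receptor gene cells and to 1.30 without cells carrying any markers of another type. The Gzma ratio with depletion turned to 1.16 in receptor gene cells.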

How the results depend on the processing

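Of 289 ratios between libraries under an alternative, 190 moved by less than their counting interval and 99 by more; of 100 ratios by Foxp3 status the numbers were 49 and 51. No library could be left out, and no replicate spread exists. No paired analysis was possible because each group has 1 library, so that its replicate number pairs nothing. TMM factors shifted the median log2 ratio of all genes for depletion over untreated from -0.21 to 0.07. Depth limits Gzmk after depletion (25 thinned cells) and the background, of 29 and 18 cells.

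In the count of members past 2-fold lower in the untreated than the naive library, 1 became 0 with TMM factors, with either rule for cells of another type and with the stricter low-count filter, and 2 with no filter, which also took the members higher there and under antibody alone from 0 to 1. Members lower under antibody alone went from 0 to 1 in receptor gene cells and without cells carrying any markers of another type. That rule takes at least 2 markers of 1 type, specific or not. It left out 385 untreated, 2309 antibody, 1330 Treg-depleted and 1438 combined-treatment cells. For antibody added to depletion, members higher went from 1 to 2 and members lower from 0 to 1 with marker cells left out, in receptor gene cells and with single-cell means; leaving out G2M-positive cells took lower from 0 to 1, and the stricter filter took higher from 1 to 0. That filter took 4 members to 2 for both treatments over untreated and over antibody; it tests fewer genes. For Foxp3-positive over negative cells after depletion, members higher went from 1 to 2 with negatives also without Il2ra, with G2M-positive cells left out, with single-cell means and without receptor gene cells, where members lower went from 1 to 0.

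The ratio of the Gzmk share with over without Gzmb, 0.232 with both treatments, was 0.560 in Foxp3-negative, 0.880 in Foxp3-positive, 0.852 in cells without Foxp3 and Il2ra and 0.453 without thinning. The ratio of the Gzmb share with over without Gzma after depletion, 1.44, was 2.28 in Foxp3-negative, 1.18 in Foxp3-positive and 2.497 in cells without Foxp3 and Il2ra. It was 1.97 without G2M-positive cells and 1.70 without cells carrying any markers of another type. The ratio for Nkg7 with over without Gzmb with both treatments turned from 0.746 to 1.80 in Foxp3-positive cells. Apart from the low-count filter, the cause of these movements was not tested.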
